A study of Mus musculus with 9 samples.

Results

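The 9 genes described here are the core of the hedgehog pathway: the ligands Shh and Ihh, the receptor Ptch1, the transducer Smo, the decoy receptor Hhip, the inhibitor Sufu and the transcription factors Gli1, Gli2 and Gli3. They were taken by name and are 9 of the 21883 protein-coding genes placed on the mouse genome. Open chromatin around them was read from ATAC-seq, in which the Tn5 transposase inserts sequencing adapters where DNA is accessible, and peaks are stretches with more insertions than their surroundings. The measured quantity is the number of called peaks that overlap a gene's span extended by 50 kb on each side, called its window below. A peak within 1000 bp of either end of the span was counted as a gene-end peak and every other peak in the window as distal. Peaks of the 9 libraries that overlapped by at least 1 bp were merged into regions. Of the 124230 merged regions in the series, 142 lay in the 9 windows.

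The libraries came from 3 mouse osteosarcoma cell lines, each sequenced in 3 libraries. The R172H line was p53R172H/-, with a missense p53 allele over a null allele. The R245W line was p53R245W/-, with another missense allele over a null allele, and the p53-null line was p53-/-. All 3 lines thus lacked wild-type p53 and were grown in the same serum-supplemented medium, so no group with normal p53 was compared. Each genotype was represented by 1 line, so a difference between genotypes and a difference between lines cannot be told apart. Nothing in the labels ties the libraries to separate cultures, so the p-values measure only the spread between these libraries, which may be technical.

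Hedgehog ligands bind Ptch1, which otherwise holds the membrane protein Smo inactive. Active Smo releases the Gli factors from Sufu, after which Gli2 acts mainly as an activator, while Gli3 is known mainly as a repressor in its processed form, and Gli1, Ptch1 and Hhip are classic target genes of the pathway. In bone, Ihh from growth plate chondrocytes controls cartilage growth and the first steps of osteoblast formation, and Shh patterns the limb and other embryonic tissues.

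Promoter sequences show how the start sites differ in letters where the peak calls also differ. The RefSeq promoter table for GRCm38.p6 held 7 of the 9 genes, each as 300 bases from 250 before to 50 after the start site, and 6 of them are printed 5′ to 3′ with each CpG dinucleotide in capitals. Shh and Gli1 had no entry. Ihh and Hhip are shown as CpG-rich promoters with weak or missing peak calls, and the others as promoters called in all 9 libraries.
Ihh promoter, chr1:74951623-74951922, minus strand: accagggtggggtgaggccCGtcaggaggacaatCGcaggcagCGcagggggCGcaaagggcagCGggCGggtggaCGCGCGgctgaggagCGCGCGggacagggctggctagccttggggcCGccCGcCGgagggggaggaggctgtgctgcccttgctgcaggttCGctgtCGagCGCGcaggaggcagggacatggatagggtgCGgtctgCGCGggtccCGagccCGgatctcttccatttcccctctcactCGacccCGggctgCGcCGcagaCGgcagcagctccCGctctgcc
Hhip promoter, chr8:80057959-80058258, minus strand: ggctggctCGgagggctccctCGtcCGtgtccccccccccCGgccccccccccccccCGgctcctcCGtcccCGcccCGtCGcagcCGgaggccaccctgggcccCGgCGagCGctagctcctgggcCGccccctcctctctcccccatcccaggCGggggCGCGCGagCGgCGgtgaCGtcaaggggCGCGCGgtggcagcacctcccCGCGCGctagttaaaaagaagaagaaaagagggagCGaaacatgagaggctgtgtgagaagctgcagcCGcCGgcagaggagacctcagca
Ptch1 promoter, chr13:63565686-63565985, minus strand: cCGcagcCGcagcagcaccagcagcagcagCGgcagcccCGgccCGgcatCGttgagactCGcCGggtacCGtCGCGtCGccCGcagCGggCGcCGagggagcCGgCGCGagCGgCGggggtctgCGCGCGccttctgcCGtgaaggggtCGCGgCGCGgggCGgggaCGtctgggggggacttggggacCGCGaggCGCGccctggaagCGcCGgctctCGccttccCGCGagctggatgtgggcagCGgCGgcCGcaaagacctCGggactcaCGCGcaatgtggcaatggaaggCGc
Sufu promoter, chr19:46396646-46396945, plus strand: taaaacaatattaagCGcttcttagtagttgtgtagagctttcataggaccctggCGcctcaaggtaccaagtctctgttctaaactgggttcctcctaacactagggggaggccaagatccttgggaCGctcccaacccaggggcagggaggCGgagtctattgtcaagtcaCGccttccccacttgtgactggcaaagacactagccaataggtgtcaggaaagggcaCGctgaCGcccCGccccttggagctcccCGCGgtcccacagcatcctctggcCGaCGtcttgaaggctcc
Gli2 promoter, chr1:119053570-119053869, minus strand: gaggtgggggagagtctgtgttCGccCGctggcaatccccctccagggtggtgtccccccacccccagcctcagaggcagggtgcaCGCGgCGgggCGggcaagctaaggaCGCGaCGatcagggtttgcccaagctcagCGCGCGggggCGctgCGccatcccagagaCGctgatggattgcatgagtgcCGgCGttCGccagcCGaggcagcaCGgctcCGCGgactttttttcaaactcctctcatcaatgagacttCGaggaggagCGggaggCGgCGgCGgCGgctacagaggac
Gli3 promoter, chr13:15463473-15463772, plus strand: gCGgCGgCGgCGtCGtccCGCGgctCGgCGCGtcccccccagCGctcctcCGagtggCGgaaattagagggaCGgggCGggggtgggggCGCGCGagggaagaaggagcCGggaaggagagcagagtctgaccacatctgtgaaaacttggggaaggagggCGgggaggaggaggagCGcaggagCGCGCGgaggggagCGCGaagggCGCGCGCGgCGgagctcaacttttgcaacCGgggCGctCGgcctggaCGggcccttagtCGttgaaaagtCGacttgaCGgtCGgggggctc

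The Ihh and Hhip promoters held 30 CpG each, with a GC content of 72.7% and 73.7%. Both exceeded 88.3% of the 32851 mouse promoters of this length in CpG number, for which the median was 7 CpG and 52.7% GC. A peak overlapped the Ihh promoter in 4 of 9 libraries and the Hhip promoter in 7 of 9. The Sufu promoter had the fewest CpG of the 7, 12 with a GC content of 56.3%, and was called in all 9 libraries. Gli2 held 28 CpG (67.3% GC), Gli3 held 39 (71% GC) and Ptch1 held 47 (76.3% GC), and each was called in all 9 libraries, as was Smo with 17 CpG (67.7% GC). CpG number therefore did not order these 7 promoters by how often they were called. The motifs GACCACCCA (Gli consensus), TGANTCA (AP-1 consensus) and TGTGGTT (Runx consensus) were searched on both strands. None of the 7 promoters held any of them, whereas 0.253%, 7.81% and 5.27% of all 32851 promoters held them, which says only that these letters are absent from the 300 bases searched.

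The 9 libraries held between 65199 and 79424 peaks. The R172H line had 73366 ± 854 peaks (mean ± SD, n = 3), the p53-null line 65638 ± 389 and the R245W line 77202 ± 2075, so lists did not have the same length. The files give no read totals. The background pile-up that the peak caller used, recovered from its fold and p-values, stood for relative depth and was 4.98 ± 0.33, 5.41 ± 0.39 and 6.06 ± 0.376 in the same order. The R245W line thus had the longest lists and the highest mean pile-up, but its pile-up overlapped that of p53-null (5.65 to 6.39 against 5.02 to 5.8). The share of depth and list length in the results below was not tested beyond a cut of all lists to the same length. Of 12 osteoblast marker genes, 9 had a peak at a gene end in every library of each line, while Bglap, Ibsp and Dmp1 had none in any library. Of 8 fibroblast markers 7 were open in all libraries of each line, but not the same 7 in every line. Thy1 and Fap were each open in only some of the 9 libraries. Open in all libraries of the R172H, p53-null and R245W lines were 1, 1 and 3 of 6 epithelial markers, 2, 2 and 3 of 6 endothelial markers, 2, 2 and 3 of 6 blood markers and 0, 1 and 1 of 4 muscle markers. The defining blood markers Ptprc and Itgam and the epithelial marker Cdh1 had no gene-end peak in any library. Chondrocyte markers were open in all libraries of the R172H line for 5 of 6 genes, of the p53-null line for 3 and of the R245W line for 4.

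Over all 9 genes together the windows held 98.7 ± 2.31 peaks per R172H library (n = 3), 90 ± 3.61 per p53-null library and 104 ± 2 per R245W library. Nearly all of them were distal: gene-end peaks averaged 8.33, 8.33 and 9.67 per library and distal peaks 90.3, 81.7 and 94.3. Window counts were compared between the 3 lines with a one-sided exact permutation test over the 280 ways to divide the libraries into 3 groups of 3, with Benjamini-Hochberg adjustment over the 19286 protein-coding genes with a peak in their window. Among all those genes 9.63% had an adjusted p under 0.05, which required the smallest p the design allows (0.00357). Among the 9 hedgehog genes it was 1, Gli2. Windows of neighbouring genes share peaks, so the tested genes are not independent of each other.

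**Figure D1:**
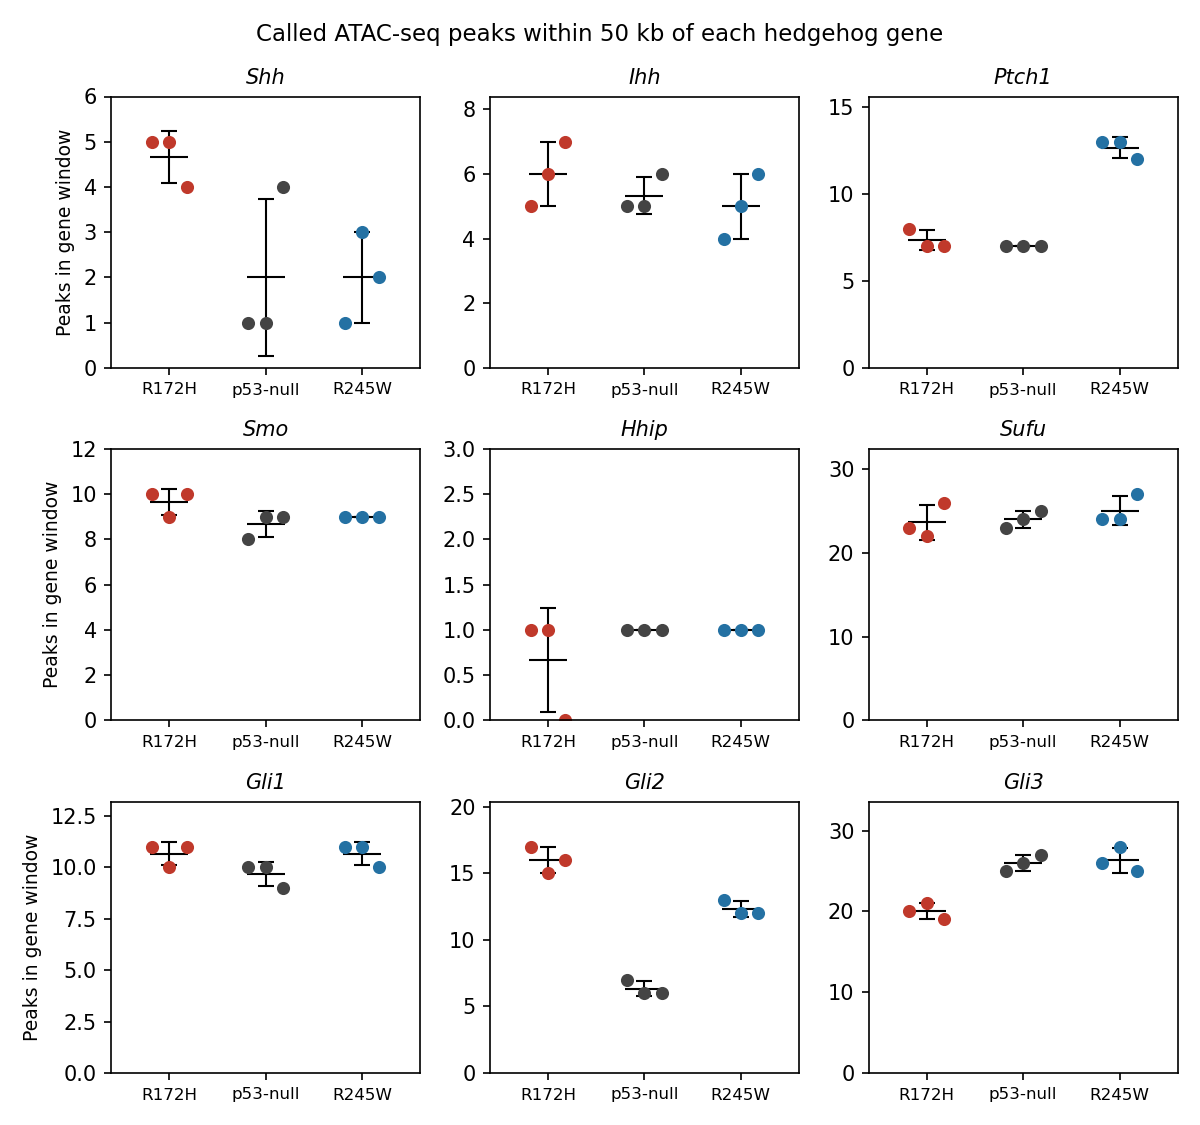
Called peaks in the window of each hedgehog gene (vertical axis, number of peaks per library), by cell line; points are the 3 libraries of a line, horizontal ticks their mean and error bars the SD. The Gli2 counts of the 3 lines do not overlap (15 to 17, 6 to 7 and 12 to 13), and the R245W counts stand apart at Ptch1 (12 to 13) and the R172H counts at Gli3 (19 to 21).

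Single regions were sorted by the libraries in which they had a peak. Of the 142 regions, 54 (38%) had a peak in all 9 libraries, against 29.4% of all regions. The line-restricted classes were 10 regions in all R172H libraries only (7.04%, background 9.83%), 7 in all R245W libraries only (4.93%, background 5.79%) and 1 in all p53-null libraries only (0.704%, background 2.74%). A further 6 were in both mutant lines and no p53-null library (4.23%, background 3.04%), and 11 in R245W and p53-null but no R172H library (7.75%, background 6.21%). No region was in R172H and p53-null but no R245W library (background 0.858%). The remaining 53 regions (37.3%) were called in some but not all libraries of at least 1 line, against 42.2% of all regions. Each line-restricted class lay within 3 percentage points of its background. The share called in all 9 libraries was above its background and the share called in part of a line below it.

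Pairs of lines gave larger counts, since the other line was left free. Of the 142 regions, 20 (14.1%) were in all R172H and no p53-null libraries (background 14.5%) and 14 (9.86%) the reverse (background 10.3%). Between R245W and p53-null the counts were 13 (9.15%, background 10.0%) and 2 (1.41%, background 4.03%). Between the mutant lines, 10 (7.04%) were in all R172H and no R245W libraries (background 11.5%) and 19 (13.4%) the reverse (background 13.8%). The shares of p53-null without R245W and of R172H without R245W were below background and the other shares within 1 percentage point of it. In all, 43 regions (30.3%) were restricted in at least 1 pair, against 35.7% of all regions. Their median width was 757 bp, against 1194 bp for the 54 regions called everywhere. The same classes over the whole series had 718 bp and 1191 bp.

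**Figure D2:**
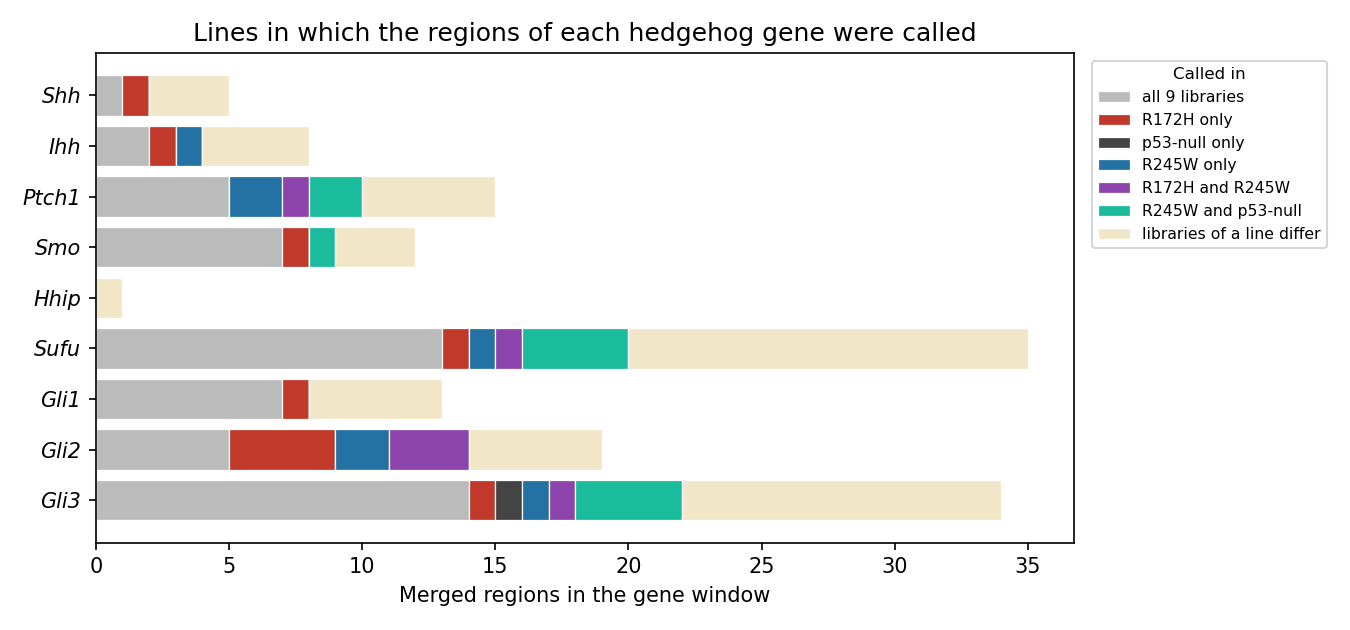
Number of merged regions in the window of each hedgehog gene (horizontal axis), split by the lines in which all 3 libraries had a peak while no library of the remaining lines did; pale segments are regions called in part of a line. Gli2 has 3 of the 6 regions of both mutant lines, 4 of the 10 of R172H only and 2 of the 7 of R245W only. Gli3 and Sufu have 4 each of the 11 regions in R245W and p53-null only.

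Gene ends were mostly called in every line. A peak lay at an end of Ptch1, Smo, Sufu, Gli1, Gli2 and Gli3 in all 9 libraries, which is 6 of 9 genes, against 55.0% of protein-coding genes. The end of Hhip was called in 8 libraries, that of Ihh in 4 and that of Shh in none. With both ends of a gene pooled, none of the 9 genes was open in every library of 1 line and in none of another, a pattern seen at 7.23% of protein-coding genes. Taken alone, the lower end of Ptch1 was open in the 3 R245W libraries and in no other, while its upper end was open in all 9. Of the 11 gene-end regions, 6 were called in all 9 libraries, 1 in R245W only and 4 in part of a line. Each library had 1 gene-end peak at Gli2 and 1 at Gli3, while at Ptch1 the R172H libraries had 1, 1 and 2, p53-null 1, 1 and 1 and R245W 2, 2 and 2. The line differences in peak number at Gli2 and Gli3 were thus distal in full. This covers the number of peaks only, since the fold and rank of the Gli2 start peak, given below, were lower in the p53-null lists.

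The ligand Shh (chromosome 5, 28456840 to 28467101, GRCm38) had 5, 5 and 4 window peaks in the R172H libraries, 1, 1 and 4 in p53-null and 1, 3 and 2 in R245W. Every R172H library was above every R245W library, but not above every p53-null library, and the exact permutation test gave p = 0.1 (adjusted p = 0.162). With all lists cut to the same length the counts were 2 to 4 in R172H, 1 to 4 in p53-null and 1 to 2 in R245W, so the lines overlapped. R172H exceeded R245W by 2.67 peaks with 50 kb windows and by 0.667 with 100 kb windows. No library had a peak at a Shh end. The 1 region called in all 9 libraries lay at 28451172 to 28451752, 5.1 kb outside the gene, and a region inside the span at 28458941 to 28460785 was called in the 3 R172H libraries only. That region was weak: it ranked at percentiles 24.5, 12 and 10.5 of its lists. The percentile gives the rank of a peak's −log10 q among all peaks of its own library, 100 being the strongest, and serves as a description only, since ranks in lists of different lengths show no change.

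Ihh (chromosome 1, 74945315 to 74951672) had 5, 6 and 7 peaks in the R172H libraries, 5, 5 and 6 in p53-null and 4, 5 and 6 in R245W. The 3 lines overlapped (exact permutation p = 0.571, adjusted p = 0.656). Its start region, 74950899 to 74951884, was called in 4 libraries, at percentiles 2.31 and 12.5 in R172H, 4.48 in p53-null and 19.5 in R245W, near the bottom of each list. The neighbouring region at 74947992 to 74950524, inside the span, was called in all 9 libraries. A region downstream of the gene at 74939736 to 74940256 was called in R172H only (percentiles 29.1 to 40.3), and one at 74967828 to 74968424, at an end of the neighbouring DNA repair gene Nhej1, was called in R245W only (28.5 to 45.8).

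Ptch1, the receptor (chromosome 13, 63508328 to 63573460), had 8, 7 and 7 peaks in the R172H libraries, 7, 7 and 7 in p53-null and 13, 13 and 12 in R245W. Every R245W library was above every library of the other lines, by 5.67 peaks over p53-null. The test across the lines gave exact permutation p = 0.0357 (adjusted p = 0.0718), short of the threshold. When all lists were cut to the 65199 strongest peaks, the length of the shortest list, the counts were 6 to 7, 7 and 8 to 9, and the difference between R245W and p53-null fell to 1.67 peaks. Chromosome 13 as a whole carried 3335 ± 40.1 peaks in R172H, 2950 ± 22.5 in p53-null and 3954 ± 89 in R245W, and the part of this in the Ptch1 difference was not tested. Every R245W library exceeded every p53-null library at 2 of the 9 genes, Ptch1 and Gli2, against 32.8% of all tested genes.

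The RefSeq start site of Ptch1 lies 7.7 kb inside the upper end of the annotated span. Its promoter region, 63563180 to 63566832, and the neighbouring 63567578 to 63568556 were called in all 9 libraries, the first at percentiles 73.6 to 77.8 in R172H, 66.9 to 73 in p53-null and 82.8 to 84.4 in R245W. A region without a peak in R172H was 63552031 to 63553808, 12.8 kb downstream of the start, which ranked between 65.4 and 69.8 in p53-null and between 24.1 and 48.4 in R245W. Regions called in all R245W libraries and in no other lay low in its lists. The region at the lower gene end, 63506424 to 63507609, ranked at 14.1 to 21.2 and the one 15.8 kb upstream, 63581256 to 63581769, at 29 to 35.

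**Figure D3:**
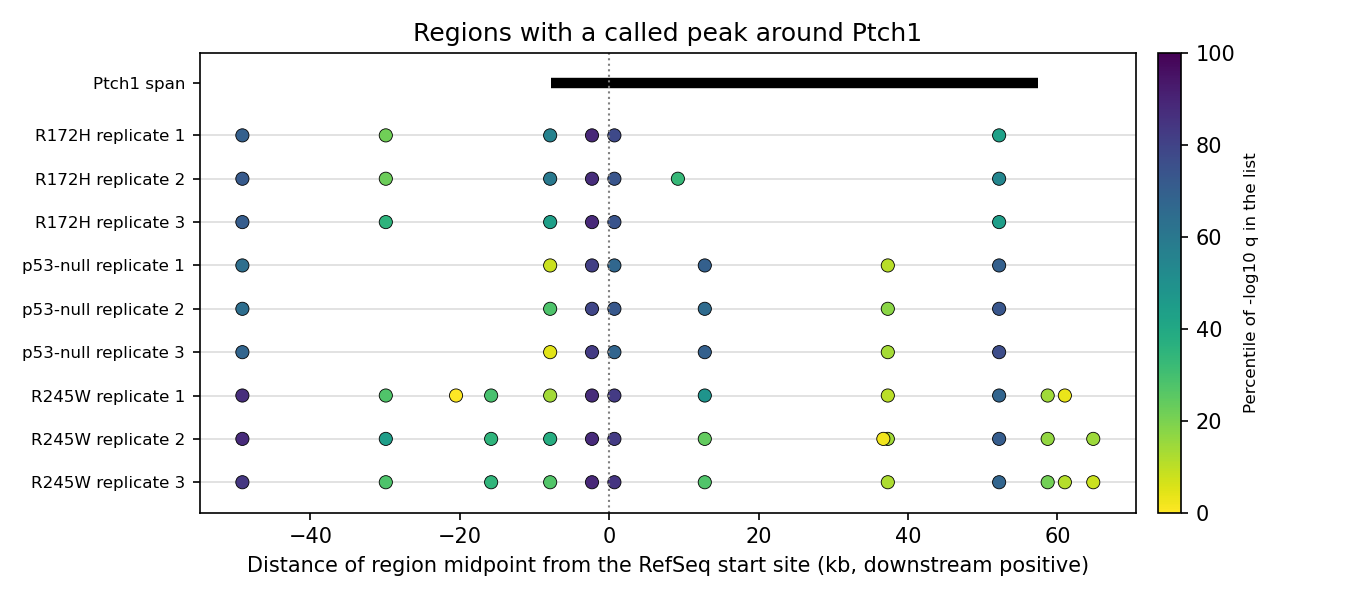
Regions around Ptch1 with a called peak in each library, by distance of the region's midpoint from the RefSeq start site (kb, downstream positive); colour gives the percentile of −log10 q within the library's own list and the black bar the gene span. The 2 regions called in all R245W libraries and no other library lie in the lower part of the colour scale (14.1 to 35), while the start region is called in all 9 libraries.

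Smo, the membrane transducer (chromosome 6, 29735497 to 29761366), had 10, 9 and 10 peaks in R172H, 8, 9 and 9 in p53-null and 9, 9 and 9 in R245W (exact permutation p = 0.214, adjusted p = 0.289). Its start region, 29735154 to 29737411, was called in every library high in each list, at percentiles 97.5 to 98.2, 86.3 to 87.9 and 97 to 97.9. A region 30.7 kb upstream at 29704253 to 29705393 had no peak in R172H and was called in every library of the other lines, near the bottom of the p53-null lists (2.44 to 6.37) and at 36.5 to 52 in R245W. By contrast, 29775591 to 29776179, 40.4 kb downstream of the start, was called in R172H only (45 to 51.2).

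Hhip, the decoy receptor (chromosome 8, 79965850 to 80058060), had the emptiest window: 1 region, at the start site (80057126 to 80058068), called in 8 of 9 libraries and missed in R172H replicate 3. Its rank was between 13.5 and 18.8 in the other R172H libraries, 2.48 to 7.83 in p53-null and 5.75 to 20.3 in R245W. No peak was called elsewhere in its window, whose 92211 bp span and flanks hold no end of another gene. The counts per library were thus 1, 1 and 0 in R172H and 1 throughout in the other lines (exact permutation p = 1).

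Sufu, the inhibitor of the Gli factors (chromosome 19, 46396896 to 46488804), had the most regions, 35, and counts of 23, 22 and 26 in R172H, 23, 24 and 25 in p53-null and 24, 24 and 27 in R245W. Totals overlapped in the uncut lists (exact permutation p = 0.686, adjusted p = 0.765). With the lists cut to the same length the counts were 20 to 22 in R172H, 23 to 25 in p53-null and 21 to 23 in R245W. Every p53-null library was then above every R172H library, but the comparison did not pass (exact permutation test, adjusted p = 0.0865). Single regions differed between the lines. The region 46453512 to 46454678 was called in R172H only (62 to 66.3). The next region, 46455276 to 46456254, was called in p53-null (59.4 to 65.5) and R245W (65.9 to 69.2) and not in R172H. In the same way 46470188 to 46472113 ranked at 79.6 to 82 in R172H and 11.5 to 31.2 in R245W and had no peak in p53-null, and 46528524 to 46529375, 39.7 kb past the end of the gene, ranked at 81 to 83 in p53-null and 80 to 82.2 in R245W with no peak in R172H. The start region is shared with an end of Actr1a and was called everywhere, between 91.1 and 97.4.

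Gli1, a pathway target and activator (chromosome 10, 127329882 to 127341579), had 11, 10 and 11 peaks in R172H, 10, 10 and 9 in p53-null and 11, 11 and 10 in R245W (exact permutation p = 0.271, adjusted p = 0.346). Its window also holds ends of 8 other genes, among them Ddit3 and Mars1. The end region at 127341421 to 127342701 ranked at 44.3 to 56.4, 41.3 to 53.5 and 62.2 to 65.9, and the stronger one inside the span, 127338780 to 127340444, at 78.4 to 80.6, 73.2 to 77.4 and 79.3 to 87.1. Both were called in every library.

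Gli2, the main activator (chromosome 1, 118834061 to 119054405), had 17, 15 and 16 peaks in the R172H libraries, 7, 6 and 6 in p53-null and 13, 12 and 12 in R245W. The 3 lines did not overlap: R172H was highest, at 16 ± 1 (mean ± SD, n = 3), R245W followed at 12.3 ± 0.577 and p53-null was lowest, at 6.33 ± 0.577. R172H exceeded p53-null by 9.67 peaks, R245W exceeded p53-null by 6 and R172H exceeded R245W by 3.67, and the test across lines gave exact permutation p = 0.00357 (adjusted p = 0.0371). Every R172H library was above every p53-null library at 1 of the 9 genes, Gli2, against 28.2% of tested genes. Every R172H library was above every R245W library at 2, Shh and Gli2, against 15.7%, but at Shh only in the uncut lists. With 20 kb windows no gene of the series passed, and the adjusted p of Gli2 was 0.0538. With lists cut to equal length the call held and the counts were 15 to 16, 6 to 7 and 10, so R245W exceeded p53-null by 3.67 peaks. Chromosome 1 as a whole had R245W highest, at 4495 ± 50.7 peaks in R172H, 4378 ± 28.2 in p53-null and 5014 ± 140 in R245W.

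Most of the Gli2 difference in peak number lay inside the gene, and all of it away from the start site. Inside the span the R172H libraries had 13, 11 and 12 peaks, p53-null 3, 3 and 3 and R245W 8, 7 and 7, of which 1 in each library was the gene-end peak at the start. Of 19 regions in the window, 12 had no peak in any p53-null library, 11 of them inside the span. From 118824986 to 118975807, a stretch of 151 kb, no p53-null library had a peak, while 5 of the regions there were called in every library of a mutant line. Each of these was called in R172H only or in R245W only, and none in both mutant lines. Much of the stretch was empty in R245W too, which had no peak between 118826287 and 118969298. Among the regions open in both mutant lines and no p53-null library, the one 59.5 kb downstream of the start site (118993696 to 118994452) ranked at 74.1 to 80.3 in R172H and 46.8 to 57.1 in R245W. The next, 49.3 kb downstream (119003838 to 119004721), ranked at 66.7 to 76.7 and 43.1 to 52.8, and the third, 31.0 kb downstream, at 27.4 to 37.8 and 7.53 to 15.6. The first of these was thus in the upper part of the R172H lists and near the middle of the R245W lists.

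R172H alone had 4 regions, 174.9, 112.2, 78.0 and 19.5 kb downstream of the start. The one at 19.5 kb (119033517 to 119034677) was the strongest, at 66 to 69.7. R245W alone had 2, of which the one past the far end of the gene, 118824986 to 118826287, ranked at 47.1 to 52.7. The region 76.8 kb downstream, 118976329 to 118977306, was called in every library (86.9 to 89.7 in R172H, 74.8 to 75.9 in p53-null, 91.9 to 95.5 in R245W). The promoter region, 119051755 to 119054319, was also called in every library, with the authors' fold enrichment at 9.07, 9.57 and 9.79 in R172H, 6.47, 5.44 and 6.72 in p53-null and 10.4, 9.44 and 9.32 in R245W. Its rank was 83.8 to 87.6, 28.4 to 38.2 and 87.4 to 89.1, so in p53-null it sat in the lower part of the list although it was called. Peak fold and rank are the authors' values within each list and were not tested between lines.

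**Figure D4:**
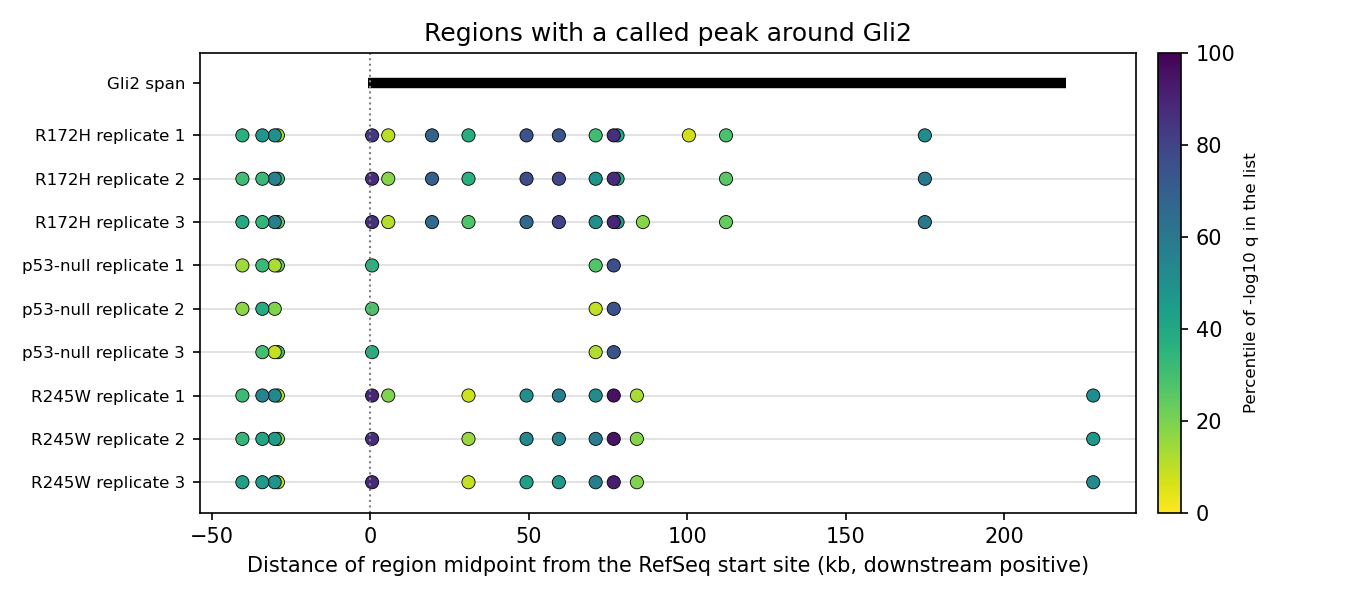
Regions around Gli2 with a called peak in each library, by distance of the region's midpoint from the RefSeq start site (kb, downstream positive); colour gives the percentile of −log10 q within the library's own list and the black bar the gene span. The p53-null libraries have 6 to 7 peaks in the window and 3 inside the span, where the R172H libraries have 11 to 13.

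The genes most like Gli2 in their window counts over the 9 libraries, by Euclidean distance among genes on other chromosomes, were Stox2 (distance 3.32, with 16, 17 and 18 peaks in R172H, 7, 6 and 7 in p53-null and 13, 11 and 12 in R245W), Sftpb (3.46) and Arhgap8 (4).

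Gli3, the main repressor (chromosome 13, 15463723 to 15730026), had 20, 21 and 19 peaks in R172H, 25, 26 and 27 in p53-null and 26, 28 and 25 in R245W. Every R172H library was below every library of the other lines, by 6 peaks against p53-null and 6.33 against R245W, while p53-null and R245W overlapped. The test across lines gave exact permutation p = 0.0357 (adjusted p = 0.0718) and did not pass. With all lists cut to the same length the counts were 18 to 20, 25 to 27 and 22 to 24, and that comparison did pass (exact permutation test, adjusted p = 0.0357). Every p53-null library was above every R172H library at 1 of the 9 genes in the uncut lists, Gli3, against 16.2% of tested genes. With the lists cut to the same length Sufu joined it, as given above. In the uncut lists every R245W library was above every R172H library at 2, Ptch1 and Gli3, against 27.2%. In the uncut lists no gene of the 9 had every p53-null library above every R245W library, against 7.37% of tested genes. With the lists cut to the same length Gli3 did, at 25 to 27 against 22 to 24. On chromosome 13 as a whole p53-null had fewer peaks than R172H, the reverse of Gli3.

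The Gli3 promoter region, 15462475 to 15464683, was called in all 9 libraries, at 93.9 to 96.8, 89.9 to 92.3 and 91.1 to 92.6. The regions missing in R172H were distal. Regions in every p53-null and R245W library and no R172H library lay 42.0 kb upstream (15421213 to 15422233, ranked 52.9 to 57.4 in p53-null and 63.3 to 68.3 in R245W), 21.5 kb upstream (15441774 to 15442591, 61.4 to 65.1 and 48.8 to 51), 63.2 kb downstream (15526426 to 15527377, 57.3 to 69.6 and 51.4 to 61.1) and 174.8 kb downstream (15638093 to 15638861, 17.3 to 28.7 and 42.1 to 49). A region 42.0 kb downstream (15505314 to 15506055) was called in p53-null only, at 45.3 to 53.1. R172H alone had 1 region, 139.2 kb downstream (15602497 to 15603419), at 45.9 to 49.3. Of the 34 Gli3 regions 12 had no peak in any R172H library, against 6 for p53-null and 6 for R245W.

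**Figure D5:**
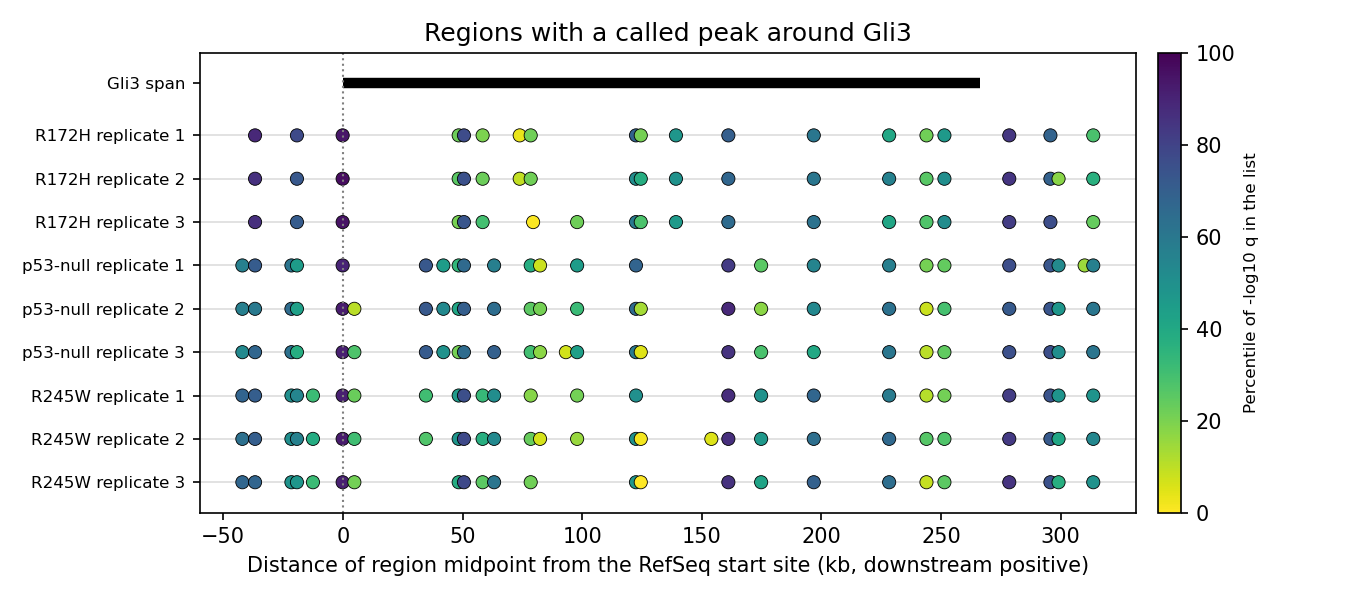
Regions around Gli3 with a called peak in each library, by distance of the region's midpoint from the RefSeq start site (kb, downstream positive); colour gives the percentile of −log10 q within the library's own list and the black bar the gene span. The R172H libraries have 19 to 21 peaks and lack those at 42.0 and 21.5 kb upstream and at 63.2 kb downstream, which the other 6 libraries have.

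Other genes of the pathway were read from a list of 28: co-receptors, ligand processing, cilium and kinase genes. By the same exact permutation test 4 of the 28 passed, all with adjusted p = 0.0371 against 9.63% of all tested genes. Boc, a co-receptor for hedgehog ligands, had 10, 10 and 10 peaks in R172H, 1, 2 and 1 in p53-null and 6, 7 and 7 in R245W, the order of Gli2. Disp1, which releases the lipid-modified ligand from the cell, had 21, 20 and 20, 12, 11 and 12 and 13, 15 and 16. Scube1, a secreted protein of the family that aids ligand release, had 14, 13 and 14, 20, 21 and 19 and 17, 18 and 18, with R172H lowest. Evc2, a ciliary regulator of Smo signalling whose neighbour Evc shares regions with it, had 8, 9 and 8, 11, 11 and 11 and 14, 13 and 13. Between R172H and p53-null, Boc and Disp1 were higher in R172H and Scube1 and Evc2 higher in p53-null, with no overlap of the libraries. A peak lay at an end of 27 of the 28 genes in every library, against 55.0% of protein-coding genes. At an end of Kif3a, a ciliary motor subunit, a peak lay in 1 library. The median over the list was 10.5 peaks in R172H, 11.2 in p53-null and 11.8 in R245W, beside 7.67, 7 and 8 over all genes and 9.67, 7 and 10.7 over the 9 core genes.

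Among 22 genes known as hedgehog targets in various tissues, 4 passed the same test, against 9.63% of all tested genes. All 4 had adjusted p = 0.0371 by the exact permutation test. Foxd1, a forkhead factor, had 7, 8 and 9 peaks in R172H, 6, 6 and 6 in p53-null and 11, 12 and 11 in R245W. Bmp2, a bone morphogenetic protein that drives osteoblast formation, had 4, 4 and 5, 2, 2 and 2 and 3, 3 and 3. Hand2, a limb patterning factor, had 6, 5 and 5, 2, 4 and 4 and 7, 8 and 7, and Cxcl14, a chemokine, had 2, 2 and 2, 1, 1 and 1 and 5, 5 and 3. Bmp2 thus had the line order of Gli2, and Foxd1, Hand2 and Cxcl14 were highest in R245W. Bcl2 and Cdk6, an inhibitor of apoptosis and a cell cycle kinase, had the most line-restricted regions of the list, 12 each over the 3 pairs. Their window counts did not pass, at adjusted p = 0.121 and 0.147 by the exact permutation test. A peak lay at an end of 17 of the 22 genes in every library, against 55.0% of protein-coding genes. No library had one at Bmp4, Pax9 or Cxcl14. The Hand2 end was called in every R172H and R245W library and in no p53-null library, and its lowest rank was 84.8 in R172H and 70.2 in R245W. An end open in all libraries of 1 line and none of another was seen at 7.23% of protein-coding genes. The median over the list was 8 peaks in R172H, 6.33 in p53-null and 7.33 in R245W.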

How the data were processed

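ATAC-seq peak lists of 9 libraries were used as deposited. Per the submitters' processing notes, the tools were MACS2 2.1.0, Bowtie 1.1.2, deepTools, Trimmomatic 0.33 and bcl2fastq 2.17, with GRCm38; settings and any Tn5 shift: not given in the sources used here. In each list the authors deposited a peak score, a fold enrichment ratio over background, and −log10 p and −log10 q values, called per library. Peaks were assigned to gene windows with Python 3.11.15, numpy 2.4.6, pandas 2.3.3 and scipy 1.17.1, using RefSeq gene spans of GRCm38.p6. Relative depth was solved from fold and p, and 97.8 to 99.2% of weak peaks (−log10 p under 60) were reproduced within 0.002. Window counts were tested as stated above; the test was checked on simulated data. Named genes were the 9 members, the 3 genes most like Gli2 and, per list, genes with an end restricted to lines and the 2 with the most line-restricted regions (Disp1, Boc, Hand2, Bcl2, Cdk6; Boc tied with Csnk1a1). Other list genes were named after their values were seen, because they passed the test or lacked end peaks. The members and lists were chosen with earlier results of these data known. Alternatives covered window size, gene-end distance, q threshold, equal list lengths, overlap rule, filters, left-out libraries and a replicate block. Peak sequences and exon or intron positions were not analysed here.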

Additional observations from a re-analysis of the deposited data

How the results depend on the processing

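Of 19286 genes tested with 50 kb windows, 1858 passed the exact permutation test. Of 18566 tested with 20 kb windows 0 passed (8046 at an unadjusted p under 0.05), and of 19848 tested with 100 kb windows 6052 passed. With the replicate block, which leaves 36 arrangements and a smallest permutation p of 0.0278, 0 genes passed (2761 at an unadjusted p under 0.05, against 10157 without it). Deviations of same-numbered libraries correlated between -0.008 and 0.028. Correlations of such counts cannot show whether same-numbered libraries were handled together, so whether the numbers pair the libraries is not known. Leaving out each library in turn gave 1687 to 1854 genes, with Gli2 passing each time. Of the 9 hedgehog genes, 1 passed in the main setting, against 9.63% of all tested genes. With equal list lengths 2 passed (Gli2 and Gli3), against 10% of all tested genes. With 100 kb windows 2 passed (Gli1 and Gli2), against 30.5%. With 20 kb windows and with the replicate block 0 passed, as for all genes. The adjusted p of Gli2 by the exact permutation test ranged from 0.0272 to 0.182. Regions in all p53-null and no R172H libraries fell from 14 to 9 with 20 kb windows. Those in R245W and not p53-null rose from 13 to 21, and those in R245W and not R172H from 19 to 29, with 100 kb windows. Those in p53-null and not R245W were 2, but 6 with equal list lengths and 1 with 20 kb windows. Wider windows cover more sequence by construction. With both ends of a gene pooled, no hedgehog gene was open in all of 1 line and none of another under the alternatives run, nor with RefSeq promoter windows in their place, added after the data were seen. Of 405 recomputed line differences for the 9 genes, 356 stayed within the spread between libraries and 49 moved beyond it. Part of the 356 could not move by construction. The replicate block keeps a difference of means, and so does leaving out a library of the line not compared. The sign turned in 20, all of them differences of 1 peak or less in the main setting. Some were larger after the turn. With equal list lengths, R245W minus p53-null went from 0.333 to -2.67 peaks at Gli3 and from 1 to -2 at Sufu. The number of libraries, 3 per line, limits an exact permutation test of 2 lines to p = 0.1 at best.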
